A study of Arabidopsis thaliana with 12 samples.

Results

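The mitochondrial genome of Arabidopsis thaliana contributed 63 of the 32744 gene rows in the count tables, those whose locus code begins with ATMG. The genes described here are the 25 of these rows with 10 or more counts summed over the 12 libraries. They held 176644 counts between them. Another 8 rows had 1 to 9 counts and 30 rows had 0, so that a minority of the annotated mitochondrial loci gave enough reads to be described. The files or the reference name 7 of the 25 genes, and the other 18 are given by locus code alone.

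Plant mitochondria keep a small genome of their own. It encodes some subunits of the respiratory chain and of ATP synthase, proteins that attach haem to c-type cytochromes, some ribosomal proteins, ribosomal RNAs and transfer RNAs, while most mitochondrial proteins are encoded in the nucleus and imported. In plant mitochondria a poly(A) tail marks an RNA for decay and is carried by few of its copies, unlike the tail of a nuclear messenger RNA. The libraries were made from RNA selected for poly(A), so a read from one of these genes stands for a tailed copy or for RNA that escaped the selection. Abundance, tailing and carry-over cannot be told apart in these data, and no level below is the amount of an RNA in the mitochondria.

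RNA was sequenced from whole seedlings in 12 libraries, 3 in each of 4 groups: snap33 and wild type (WT) labelled 5 d, and snap33 and WT labelled 12 d. The mutant carries a T-DNA insertion described as a knock-out of SNAP33, a plasma membrane t-SNARE, and all plants were untreated and grown on solid medium in long days. The labels date the planting of the snap33 plants called 12 d to 9 March, 32 to 34 days before their harvest, but that of the WT plants called 12 d to 29 March, 12 to 14 days before theirs. Both 5 d groups also go back to 29 March, with 5 to 7 days to the harvest. Genotype and time since planting therefore cannot be told apart in the 12 d comparison. The genotype field of the WT samples carries knock-out wording as well, but SNAP33 was at 0.949 CPM in snap33 against 21.3 CPM in WT at 5 d, and at 2.74 CPM in snap33 against 24.4 CPM in WT at 12 d. CPM are gene counts scaled to the library size, with TMM factors. Gene counts ranged from 4304441 to 5754570 per library. The 3 libraries of a group were harvested on 3 different days of 1 planting. Nothing in the labels ties them to separate plates or seed batches, and every p-value below rests on the spread between these harvests. The 4 leaf mesophyll markers summed to 10400 to 14300 CPM in snap33 and 10600 to 12900 CPM in WT at 5 d, and to 6010 to 6850 CPM in snap33 and 9020 to 10000 CPM in WT at 12 d. The 5 root markers summed to 66.9 to 86.3 CPM in snap33 and 88.6 to 106 CPM in WT at 5 d, and to 49.6 to 61.5 CPM in snap33 and 86.3 to 107 CPM in WT at 12 d. Seed storage markers summed to at most 2.64 CPM, and of 4 flower markers only PI averaged above 0.5 CPM in any group. PI averaged 49.5 CPM in snap33 against 9.15 CPM in WT at 5 d, from uneven snap33 counts of 61, 289 and 276. At 12 d it was the other way, 18.8 CPM in snap33 against 28.6 CPM in WT.

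A copy of much of the mitochondrial genome lies in nuclear chromosome 2, and reads that match both places are not assigned to either by counting that asks for a unique position. In the TAIR10.1 reference, 70.6% of all 50-base windows of the 367808-base mitochondrial chromosome had an exact copy in the nuclear genome, 70.4% on chromosome 2, and 67.6% of 100-base windows still did. Of 122 loci coded AT2G07620 to AT2G07840, 112 matched the mitochondrial chromosome over at least 80% of their length at 95% identity or more. They spanned chromosome 2 from 3239693 to 3503608 and together received 22 counts, with 98 of them at 0. The authors' files are on TAIR10, whose mitochondrial sequence may not be that of TAIR10.1. Values on copies are therefore a description of TAIR10.1.

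The sequences of 4 genes are printed as examples of copied and uncopied stretches, and what copying does to their counts was not tested. One is the start of cob (ATMG00220, apocytochrome b of complex III), chosen because it was at 0 counts in all libraries. Its whole coding sequence of 1182 bases, at MT:181677-182858 on the minus strand, was identical to chr2:3450863-3452044 on the plus strand. The first 60 bases are printed in lower case, 5′ to 3′, from both places.
cob, MT:182799-182858, minus strand: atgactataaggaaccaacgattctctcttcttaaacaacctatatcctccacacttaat
cob copy, chr2:3450863-3450922, plus strand: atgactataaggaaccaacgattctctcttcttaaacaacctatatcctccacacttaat

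Another is ccmFN2 (ATMG00960, named a cytochrome c assembly protein), which had 14 counts. Its 612 coding bases at MT:291580-292191 differed from chr2:3273544-3274154 by 1 base that the copy lacks. The extra base lies in a run of A, so any A of that run could be the one printed as a capital.
ccmFN2, MT:291791-291850, plus strand: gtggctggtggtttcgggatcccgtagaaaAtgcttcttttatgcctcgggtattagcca
ccmFN2 copy, chr2:3273755-3273813, plus strand: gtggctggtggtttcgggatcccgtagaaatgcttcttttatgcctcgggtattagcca

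The remaining examples are atp4, a subunit of ATP synthase, and trnH, the transfer RNA for histidine, which had 225 and 11 counts. No 50-base window of either had a nuclear copy. The first 60 coding bases of atp4 and the whole 74 bases of trnH are shown.
atp4, MT:362206-362265, plus strand: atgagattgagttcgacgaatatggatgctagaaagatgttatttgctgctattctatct
trnH, MT:124603-124676, minus strand: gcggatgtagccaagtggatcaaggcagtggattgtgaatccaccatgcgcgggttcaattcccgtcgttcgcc

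**Figure D1:**
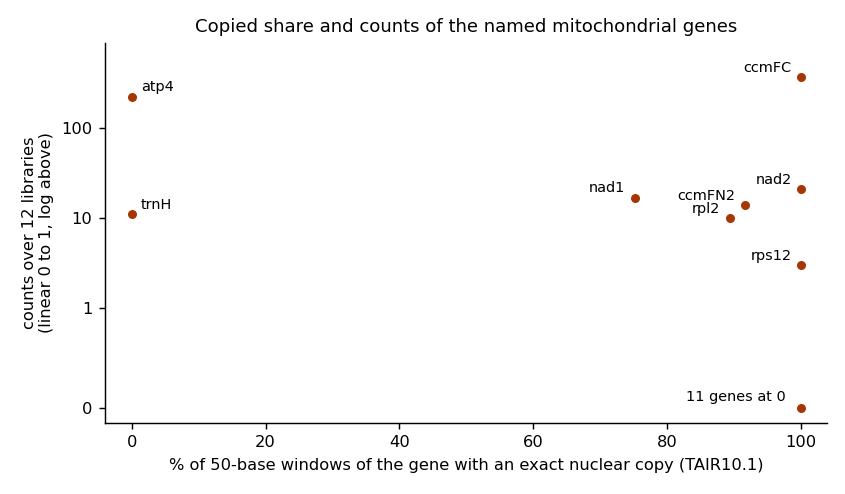
Share of 50-base windows of each named mitochondrial gene with an exact nuclear copy in TAIR10.1 (x axis, percent) against its counts summed over 12 libraries (y axis, linear from 0 to 1 and logarithmic above). The 11 genes at 0 counts all sit at 100% copied, while ccmFC, with 371 counts, sits at 100% too. All genes but atp4 and trnH were named through a chromosome 2 locus, which favours copied genes. For nad1 and nad2 the share is that of the whole gene, and the counts are those of a code for part of it.

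Of the 17 codes that could be tied to a mitochondrial gene through a named chromosome 2 locus, 11 had 0 counts, and all 11 genes were copied over 100% of their windows. They were cob, cox3, nad3, atp1, atp6, atp8, atp9, rpl5, rps4, rps7 and ccmC, which span complexes III, IV and I, ATP synthase, the mitochondrial ribosome and cytochrome c maturation. One of the copies of atp6 in the mitochondrial chromosome was copied over 71.1% only. Tying codes to genes through chromosome 2 favours genes with a copy there. How counts differ between copied and uncopied genes can therefore not be read from this set. With 59063313 gene counts in all, a row at 0 allows up to 0.0508 CPM. A 0 here does not show that the gene was not transcribed, and the part of copying and of poly(A) selection in these zeros was not tested. Full copying did not always go with 0 counts: ATMG00180 (a cytochrome c biogenesis gene, ccmFC) had 371 counts, ATMG01320 (NADH dehydrogenase 2B, part of nad2) had 21 and rps12 had 3, with all coding windows of these genes copied. The whole of nad1 and of rpl2 was copied over 75.2% and 89.4% of coding windows. ATMG01275 (NADH dehydrogenase 1A, part of nad1) had 17 counts, and ATMG00560 (an OB-fold protein whose partner locus matches rpl2) had 10. The copied share of the part in ATMG01275 alone was not computed. Among the mitochondrial genes of the reference with no exact nuclear copy were rrn26 and rrn5, ribosomal RNAs, and ccmB, cox1, nad9 and nad4L, and rrn18 was copied over 0.371% of its windows. The sources used here do not pair these names with locus codes, so none of them is assigned to a gene below.

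The reads were spread very unevenly over the 25 genes. ATMG00020 alone held 142403 counts, 80.6% of the total, and ATMG01390 (8526 counts), ATMG01380 (7494 counts) and ATMG00070 (6315 counts) brought the share to 93.3%. The other genes with 1000 or more counts were ATMG01360 with 3033, ATMG00580 with 2486, ATMG00090 with 2362 and ATMG00080 with 1500. Another 8 genes had at least 100 counts, led by ATMG00516 with 839, and 9 had fewer than 100. Counts were not divided by gene length, so this order is one of reads and not of RNA molecules. At the edge of the minimum lay ATMG00513 with 13 counts, trnH with 11 and ATMG00560 with 10, and just outside it ATMG00380 with 9, ATMG00570 with 8 and ATMG00520 with 5.

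The 25 genes together took more of the gene counts in snap33 than in WT at 5 d, by a small margin. Their share was 0.270%, 0.257% and 0.292% in the snap33 libraries, against 0.240%, 0.248% and 0.242% in the WT libraries. Every snap33 library lay above every WT library. The means were 0.273% ± 0.018 in snap33 and 0.244% ± 0.004 in WT (SD, n = 3 each), a ratio of 1.12. Without ATMG00020 the ratio was 1.13. No p is given for shares, since 3 against 3 libraries cannot give a two-sided exact permutation p below 0.1. Fewer cells of a type and less RNA per cell cannot be told apart in whole seedlings.

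At 12 d the groups overlapped. The share was 0.349%, 0.397% and 0.420% in the snap33 libraries, against 0.273%, 0.228% and 0.360% in the WT libraries. The third WT library lay inside the snap33 range, and the other 2 lay below it. Means were 0.389% ± 0.036 in snap33 and 0.287% ± 0.067 in WT (SD, n = 3 each), a ratio of 1.35, or 1.55 without the third WT library. Most of the difference in the sum was ATMG00020: with that gene left out the shares averaged 0.065% ± 0.005 in snap33 and 0.059% ± 0.012 in WT, a ratio of 1.12. For the highest library, snap33 replicate 3, the Wilson 95% interval was 0.414% to 0.425%, so counting error was small beside the spread between libraries. Across age, the share at 12 d was 1.42 times that at 5 d in snap33, with no overlap, and 1.18 times in WT, with overlap, or 1.03 times without WT 12 d replicate 3. By the labels the snap33 step covers a longer time since planting than the WT step.

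**Figure D2:**
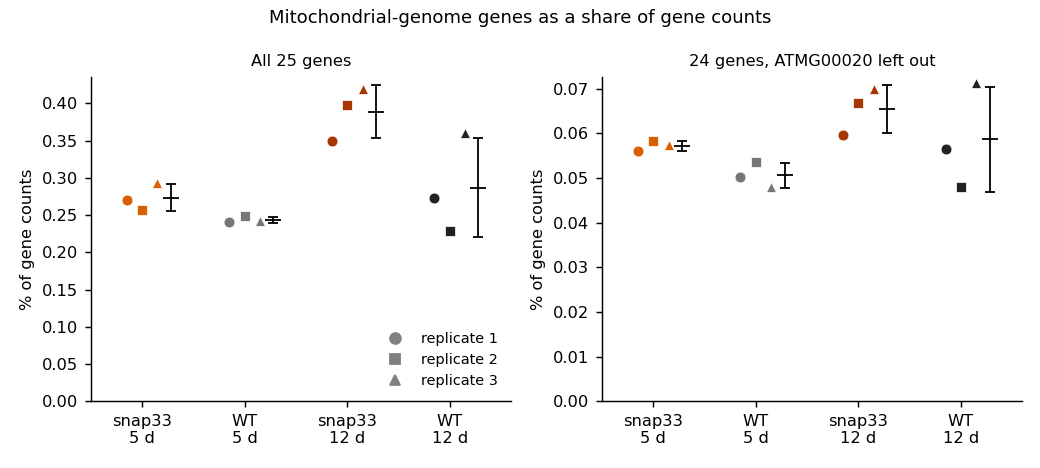
Percent of gene counts taken by the mitochondrial-genome genes in each library (points, shaped by replicate) with the mean and SD of each group (bar, n = 3), for all 25 genes and for the 24 other than ATMG00020. The third WT library of 12 d (0.360%) stands with the snap33 libraries of that age (0.349% to 0.420%).

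WT 12 d replicate 3 stood apart from its group in many of these genes. Of the 16 genes with 100 or more counts, it was above both other WT libraries of that age in 13, below both in 2 and between them in 1. The share of all genes placed so was not computed. In a sum over all genes with enough counts, those of the chloroplast and mitochondria included, WT 12 d replicate 3 stood apart too. That sum was not computed without the organelle genes, so it does not show a departure over genes of all kinds. Chi-square per degree of freedom, against sampling noise, was 8.09 and 10.61 between it and replicates 1 and 2. Between replicates 1 and 2 it was 4.2, and within the other groups at most 5.51. The same library had the highest chloroplast share of all 12 (3.97% of gene counts, against 2.33% to 3.47% in the others) and the highest share of reads without a gene (12.1%, against 9.26% to 11.6%). Whether these values play a part in its mitochondrial counts was not tested. Many of the 12 d values below are also given without it.

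At 5 d, ATMG01390 was the gene that changed between the genotypes. It had 126, 152 and 141 CPM in snap33, against 102, 86.1 and 92.7 CPM in WT. The groups did not overlap. The log2 fold change was 0.58 (SE 0.15), with an adjusted p of 0.0142 (edgeR quasi-likelihood test, Benjamini-Hochberg over 18830 genes). The low-count filter of the test kept 17 of the 25 genes. Of these 17, 1 rose and 0 fell at 5 d, where 13% of all genes tested were called, 8.22% as higher and 4.77% as lower. Unadjusted p was under 0.05 for 2 of the 17. The share of all genes at that unadjusted level was not computed and is at least 13%. The call on ATMG01390 was lost when snap33 replicate 2 (adjusted p 0.0511), WT replicate 2 (0.0706) or WT replicate 3 (0.052) was left out.

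None of the other genes passed the test at 5 d. ATMG00020 had 2268, 2053 and 2515 CPM in snap33, against 1933, 2037 and 1990 CPM in WT. Although every snap33 value was the higher, the nearest values, 2053 and 2037 CPM, almost met, and the log2 fold change was 0.20 (SE 0.13, edgeR adjusted p 0.352). The largest fitted change was that of ATMG00650, at 2.86, 2.16 and 2.62 CPM in snap33 against 0.670, 0.784 and 1.79 CPM in WT, a log2 fold change of 1.24 (SE 0.49, edgeR adjusted p 0.104). Next came atp4 with a log2 fold change of 0.62 (SE 0.41) and ATMG00180 with 0.28 (SE 0.29). On the lower side the largest were ATMG00580 with -0.15, ATMG00080 and ATMG00090 with -0.12 each and ATMG00516 with -0.11, all smaller than their SE. CPM of snap33 and WT libraries did not overlap for 3 of the 17 genes, ATMG00020, ATMG00650 and ATMG01390, all higher in snap33, against 32% of all genes tested, 16.7% higher and 15.3% lower. The median log2 fold change was 0.19 over the 17 genes and -0.003 over all genes tested.

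At 12 d some mitochondrial genes were higher in snap33 and others lower. Of the 17 genes tested 3 rose and 2 fell (edgeR adjusted p under 0.05), where 41.6% of all genes tested were called, 21.1% as higher and 20.5% as lower. A share of 5 in 17 is below that background, so the count itself does not set these genes apart. The summed leaf and root markers given above were lower in every snap33 library than in every WT library of 12 d, and so were the summed root markers at 5 d. Single root markers did not all follow the sum. EIR1 averaged 11.7 CPM in snap33 and 10.6 CPM in WT at 12 d, and SCR 38.2 CPM in snap33 and 38.3 CPM in WT at 5 d. The part of the markers in these results was not tested. Unadjusted p was under 0.05 for 8 of the 17. The share of all genes at that unadjusted level was not computed and is at least 41.6%, so the 8 are not an excess.

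The genes that fell were ATMG00070 and ATMG01380. ATMG00070 had 61.3, 61.5 and 66.1 CPM in snap33, against 112, 118 and 79.8 CPM in WT. All snap33 values lay below all WT values, and the lowest WT value was that of replicate 3. Its log2 fold change was -0.72 (SE 0.15, edgeR adjusted p 0.000698), and -0.87 without that library. ATMG01380 had 71.8, 80.7 and 78.9 CPM in snap33, against 118, 113 and 96.2 CPM in WT, again with no overlap and with replicate 3 the lowest WT library. Its log2 fold change was -0.50 (SE 0.12, edgeR adjusted p 0.00174), and -0.58 without it.

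ATMG00020, ATMG00516 and ATMG01390 rose. For ATMG00020 the values were 2721, 3258 and 3409 CPM in snap33, against 2121, 1720 and 2748 CPM in WT. The highest WT library, replicate 3, overlapped the lowest snap33 library. The log2 fold change was 0.51 (SE 0.13, edgeR adjusted p 0.00341), and 0.70 without WT replicate 3. ATMG00516 had 23.0, 27.8 and 29.3 CPM in snap33, against 17.3, 9.46 and 18.1 CPM in WT. These groups did not overlap, and the log2 fold change was 0.85 (SE 0.20, edgeR adjusted p 0.00177), and 1.02 without WT replicate 3. ATMG01390 had 171, 193 and 218 CPM in snap33, against 164, 107 and 167 CPM in WT. The groups stood apart by a narrow margin and the call was an unsteady one: the log2 fold change was 0.41 (SE 0.14, edgeR adjusted p 0.0286), or 0.52 without WT replicate 3, and the adjusted p was 0.174 without WT replicate 2, 0.139 without snap33 replicate 3 and 0.0635 without snap33 replicate 2.

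The genes ATMG01360, ATMG00580, ATMG00090 and ATMG00080 turned on WT replicate 3. ATMG01360 had 67.4, 87.7 and 86.2 CPM in snap33, against 41.3, 29.7 and 91.2 CPM in WT. For ATMG00080 the values were 35.0, 41.0 and 43.2 CPM in snap33, against 14.7, 11.8 and 45.3 CPM in WT. In both, and likewise in ATMG00580 and ATMG00090, 2 WT libraries lay far below the snap33 libraries and the third lay at or above the highest of them. ATMG00580 had 56.9, 72.5 and 62.6 CPM in snap33, against 32.02, 23.4 and 72.5 CPM in WT, and ATMG00090 had 45.1, 54.5 and 56.6 CPM in snap33, against 22.0, 21.2 and 65.2 CPM in WT. With all libraries none of the 4 passed the edgeR test: the log2 fold changes were 0.58 for ATMG01360, 0.59 for ATMG00580, 0.53 for ATMG00090 and 0.74 for ATMG00080, with adjusted p from 0.0587 to 0.135. Without WT replicate 3 all 4 rose, by 1.19, 1.22, 1.27 and 1.59 in that order, with edgeR adjusted p from 1.57e-07 to 1.71e-05. That fit called 9 of 17 genes, 7 higher and 2 lower, where 43.8% of all genes were called.

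Same-numbered snap33 and WT libraries of an age share a harvest day in the labels. With the replicate block within age, that is, a term for each harvest day, 9 of the 17 genes were also called at 12 d, 7 higher and 2 lower, where 36.6% of all genes tested were called. The genes added were ATMG01360 (edgeR adjusted p 0.0183), ATMG00580 (0.022), ATMG00090 (0.0212) and ATMG00080 (0.00807). CPM of snap33 and WT libraries did not overlap for 3 genes that were higher in snap33, ATMG00516, ATMG01120 and ATMG01390, and for the 2 that fell, against 50.2% of all genes tested, 25% higher and 25.2% lower. The median log2 fold change at 12 d was 0.30 over the 17 genes and -0.037 over all genes tested. ATMG00650, at 1.66, 2.56 and 2.71 CPM in snap33 against 3.02, 1.99 and 5.32 CPM in WT, overlapped between the groups, and its log2 fold change of -0.55 (SE 0.37, edgeR adjusted p 0.256) was the only other negative one among genes with 100 or more counts. Without WT replicate 3 it was -0.10 (edgeR adjusted p 0.863). ATMG00060, with 217 counts, had 4.05, 3.66 and 4.65 CPM in snap33 against 3.22, 3.32 and 5.32 CPM in WT at 12 d, with overlap, and a log2 fold change of 0.06 at either age (SE 0.29 at 12 d and 0.33 at 5 d).

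**Figure D3:**
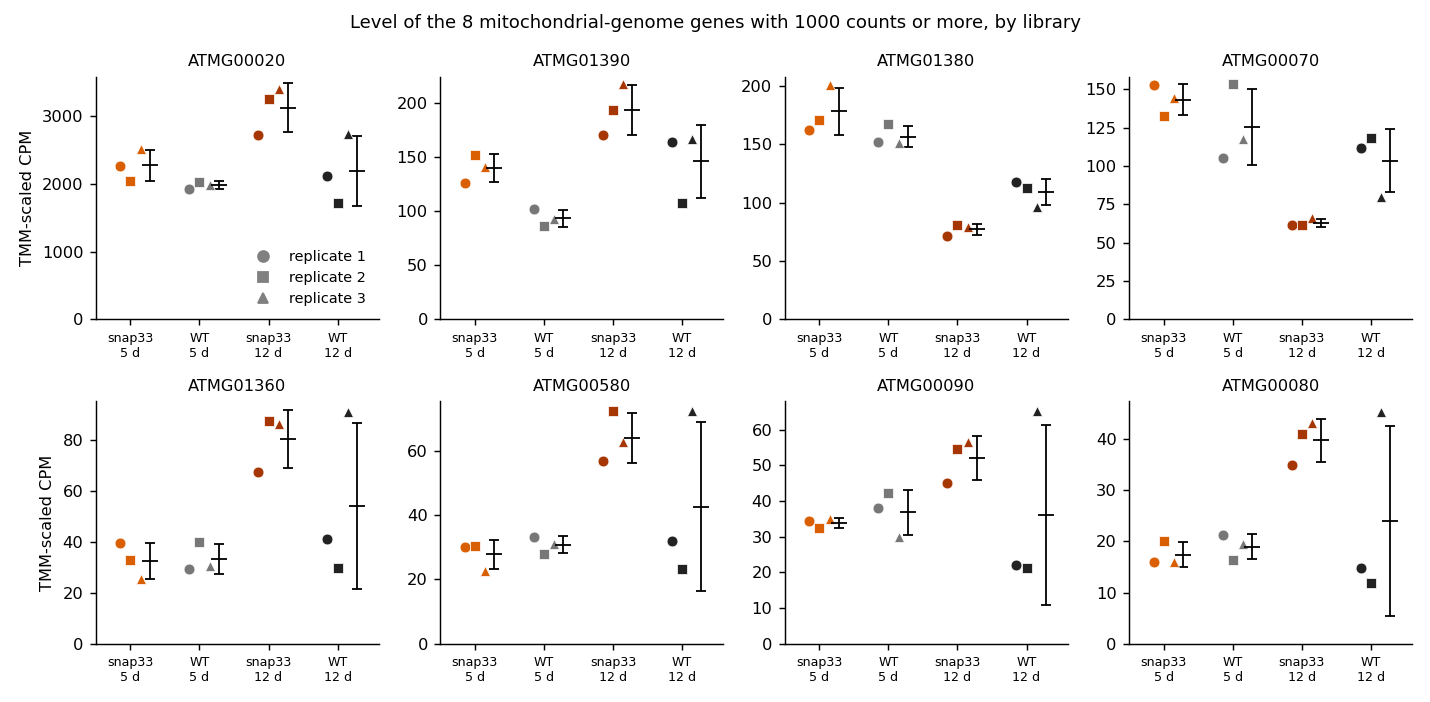
TMM-scaled CPM of the 8 genes with 1000 counts or more in each library (points, shaped by replicate) with group mean and SD (bar, n = 3). In ATMG01360, ATMG00580, ATMG00090 and ATMG00080 the third WT library of 12 d lies above the other 2, while in ATMG00070 and ATMG01380 it lies below them.

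**Figure D4:**
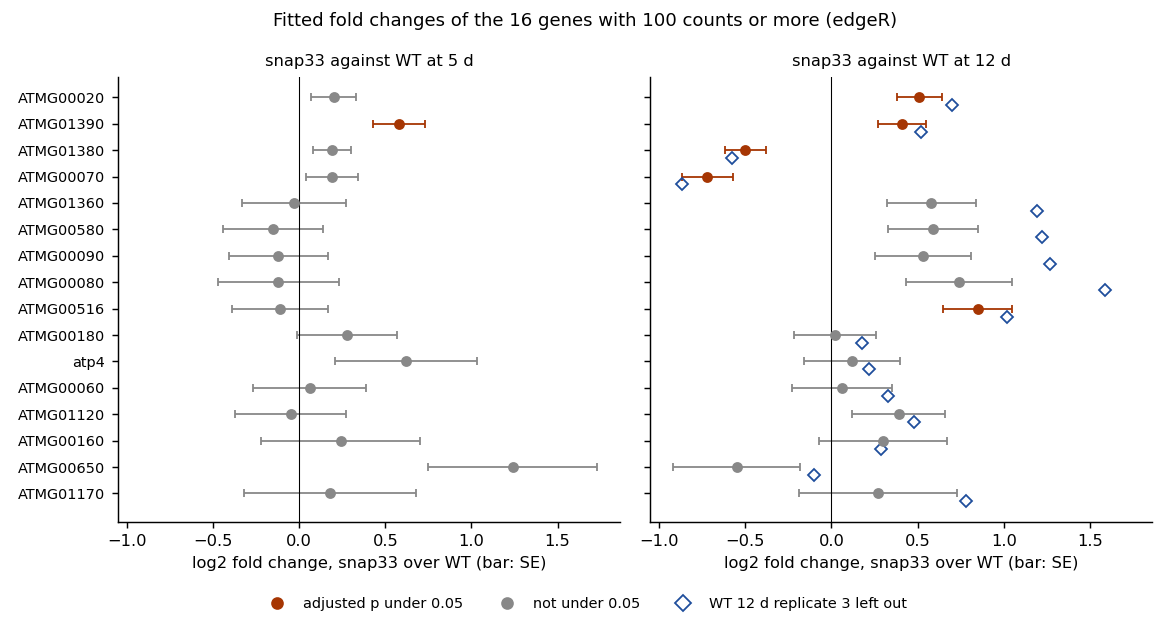
Fitted log2 fold change of snap33 over WT (points, bar for the SE) at 5 d and 12 d for the 16 genes with 100 or more counts, in order of counts from the top, with genes at an edgeR adjusted p under 0.05 in dark red. Open diamonds give the 12 d value without the third WT library, which for ATMG00080 is 1.59 against 0.74 with it.

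The effect of snap33 differed between the ages for 4 of the 17 genes, where 23.7% of all genes tested were called (11% higher and 12.8% lower at 12 d). A count of 4 in 17 is near that share, so it does not set these genes apart. ATMG00070 had a log2 fold change of -0.72 at 12 d against 0.19 at 5 d, a difference of -0.91 (SE 0.21, edgeR adjusted p 0.00353). For ATMG01380 the change was -0.50 at 12 d against 0.19 at 5 d, and the difference was -0.68 (SE 0.16, edgeR adjusted p 0.00425). Both calls were kept in all 19 alternative fits. ATMG00516 had a log2 fold change of 0.85 at 12 d against -0.11 at 5 d, a difference of 0.95 (SE 0.34, edgeR adjusted p 0.0471), and ATMG00650 had -0.55 against 1.24, a difference of -1.79 (SE 0.62, edgeR adjusted p 0.0409). These 2 calls were near the threshold and held in 7 and 8 of 19 alternative fits, and with the replicate block within age 2 calls were left, with adjusted p of 0.0543 for ATMG00516 and 0.0539 for ATMG00650. Leaving out WT 12 d replicate 3 gave 8 calls, 6 higher and 2 lower, where 26.9% of all genes were called, and the differences were then 1.71 for ATMG00080, -1.06 for ATMG00070 and -0.77 for ATMG01380. Since the snap33 plants of the 12 d group had the longer time since planting, the difference covers that as well as genotype.

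With age, some of the genes were called higher and others lower in both genotypes. The counts called in either direction lay near the share of all genes in both, so they do not set these genes apart. The age steps of the genotypes are unlike by the labels. The 12 d plants had 32 to 34 days since planting in snap33 and 12 to 14 in WT, against 5 to 7 in both 5 d groups. In snap33 the ages also had different planting dates, so age and planting cannot be told apart there. In snap33, 8 of the 17 genes were higher at 12 d than at 5 d and 2 were lower, where 54.8% of all genes tested were called, 28.2% as higher and 26.6% as lower. The largest rise was that of ATMG00516, at 26.7 ± 3.28 CPM at 12 d and 6.27 ± 0.68 CPM at 5 d (SD, n = 3 each), a log2 fold change of 2.08 (SE 0.23, edgeR adjusted p 2.9e-07). ATMG01360, ATMG00580 and ATMG00080 rose by 1.30, 1.20 and 1.19 on the log2 scale, atp4 by 1.04, ATMG01390 by 0.47 and ATMG00020 by 0.46. The eighth was ATMG00510, a gene with 96 counts, which had 4, 5 and 3 counts in snap33 at 5 d and 14, 14 and 13 at 12 d. It passed the low-count filter only through 12 d libraries, where it is high, so its call with age is no support. ATMG01380 fell to 77.1 ± 4.72 CPM at 12 d, against 178 ± 20.2 CPM at 5 d (SD, n = 3 each), a log2 fold change of -1.21 (SE 0.12, edgeR adjusted p 4.44e-08), and ATMG00070 had a log2 fold change of -1.19 (SE 0.15). CPM did not overlap between the ages for 10 higher genes, ATMG00510 among them, and 2 lower genes in snap33. Of all genes tested 63% did not overlap, 32.4% higher and 30.6% lower.

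In WT, 6 of the 17 genes were higher at 12 d than at 5 d and 1 was lower, where 40.7% of all genes tested were called, 21.5% as higher and 19.2% as lower. The gene that fell was ATMG01380, at 109 ± 11.4 CPM at 12 d and 157 ± 9.06 CPM at 5 d (SD, n = 3 each), a log2 fold change of -0.52 (SE 0.11, edgeR adjusted p 0.00112). ATMG00516 rose by 1.13, atp4 by 1.54, ATMG00650 by 1.64, ATMG00180 by 0.82 and ATMG01390 by 0.64 on the log2 scale. The rises of atp4 and ATMG00650 start from few counts in WT at 5 d, 6, 12 and 6 for atp4 and 3, 4 and 8 for ATMG00650. The sixth was ATMG00510, with 2, 4 and 2 counts in WT at 5 d and 10, 8 and 17 at 12 d. As in snap33, its call is no support, since it passed the filter only through 12 d libraries. The call on ATMG00180 was lost without WT 12 d replicate 3 (edgeR adjusted p 0.0776), WT 5 d replicate 3 (0.0787) or WT 5 d replicate 2 (0.0503). Without WT 12 d replicate 3 the log2 fold changes were 0.96 for ATMG00516, 1.44 for atp4, 1.19 for ATMG00650, 0.66 for ATMG00180 and 0.54 for ATMG01390. The same 6 and 1 were the genes whose CPM did not overlap between the ages, where 48.3% of all genes tested did not, 25.3% higher and 23% lower. ATMG00020 had a log2 fold change of 0.15 (SE 0.13, edgeR adjusted p 0.393) and ATMG00070 one of -0.28 (SE 0.15, edgeR adjusted p 0.136). For ATMG00080 the change was 0.33 with all libraries and -0.52 without WT 12 d replicate 3 (edgeR adjusted p 0.0291), so its direction in WT rested on that library. ATMG00090 also fell without it (log2 fold change -0.77, edgeR adjusted p 0.000611), and the counts were then 5 higher and 3 lower. The comparisons of age and of genotype share libraries, and their values are not independent of each other.

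The make-up of the mitochondrial counts was set side by side between the genotypes. Of 16 genes with 100 or more counts, the share of mitochondrial counts in snap33 at 12 d lay above every WT library for 2, ATMG00020 and ATMG00516, and below every WT library for 4, ATMG00070, ATMG01380, ATMG00180 and ATMG00650. It overlapped for 10. At 5 d it lay above for 2, ATMG00650 and ATMG01390, below for 0, and overlapped for 14. No background share was computed for these counts. For a single gene, full separation of 3 against 3 libraries has a two-sided exact permutation p of 0.1. The counts are therefore a description and do not set these genes apart. ATMG00020 took 82.9%, 83.2% and 83.3% of the mitochondrial counts in snap33 at 12 d, against 79.3%, 79.0% and 80.2% in WT. ATMG01380 took 2.19%, 2.06% and 1.93% in snap33 at 12 d, against 4.41%, 5.18% and 2.81% in WT, and ATMG00070 took 1.87%, 1.57% and 1.62% in snap33, against 4.18%, 5.42% and 2.33% in WT. Since ATMG00020 holds most of the counts, a rise in it lowers the shares of all others, and a share alone does not tell which gene moved.

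The 2 genes that fell, the 4 that turned on WT replicate 3 and ATMG00516 can be set against each other within a library, which needs no library scaling. The sum of ATMG01360, ATMG00580, ATMG00090, ATMG00080 and ATMG00516 over the sum of ATMG00070 and ATMG01380 was 1.71, 1.99 and 1.92 in snap33 at 12 d, against 0.553, 0.414 and 1.66 in WT at 12 d. At 5 d it was 0.402, 0.404 and 0.302 in snap33, against 0.505, 0.417 and 0.433 in WT. WT replicates 1 and 2 of 12 d thus lay near the 5 d libraries, and WT replicate 3 lay near the snap33 libraries of 12 d. The genes of this ratio were picked after their values were seen, and leave out ATMG00020 and ATMG01390, which also rose, so the ratio is a description with no test. Over all 16 genes with 100 or more counts, the CPM of WT replicate 3 lay within the snap33 range of 12 d for 4, above it for 8 and below it for 4.

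**Figure D5:**
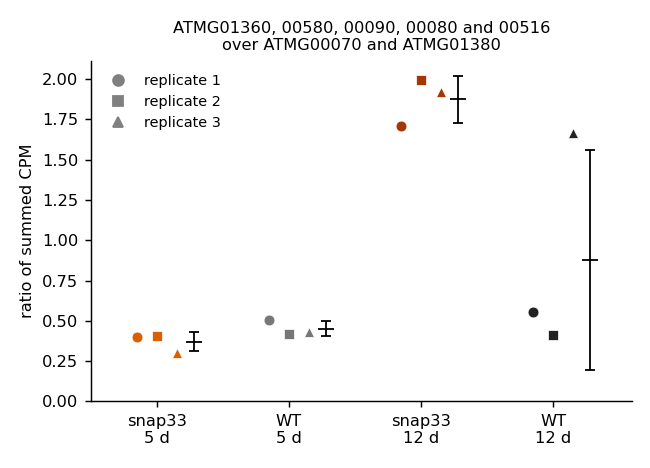
Ratio of the summed CPM of 5 genes (ATMG01360, ATMG00580, ATMG00090, ATMG00080 and ATMG00516) to that of ATMG00070 and ATMG01380 in each library (points, shaped by replicate), with group mean and SD (bar, n = 3). The third WT library of 12 d (1.66) stands beside the snap33 libraries of 12 d (1.71 to 1.99), and all other WT libraries are at or below 0.553.

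Most subunits of the respiratory chain are encoded in the nucleus, and their messenger RNAs carry ordinary poly(A) tails. Of 72 nuclear genes of the chain and ATP synthase 71 were tested. At 5 d 1 of them rose and 5 fell in snap33, a called share of 8.45%, below the 13% of all genes. CYTC-2 and CYTC-1, the isoforms of cytochrome c that carries electrons to complex IV, were among those that fell: CYTC-2 averaged 57.6 ± 1.69 CPM in snap33 and 86.5 ± 4.77 CPM in WT (SD, n = 3 each; log2 fold change -0.58, edgeR adjusted p 0.00134), and CYTC-1 had a log2 fold change of -0.35 (edgeR adjusted p 0.0152). AT4G26210, annotated as ATP synthase subunit G, had a log2 fold change of -0.54 (edgeR adjusted p 0.0261). The gene that rose was AT5G57815, of the cytochrome c oxidase subunit VIb family, with a log2 fold change of 0.48 (edgeR adjusted p 0.0162). Few of these calls were steady: 2 genes, both lower, were called with the replicate block within age, and 2 to 4 when a library was left out.

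At 12 d 10 of the 71 rose and 5 fell, a called share of 21.1%, again below the 41.6% of all genes. The split between the directions depended on the scaling: 5 rose and 13 fell with upper-quartile scaling, and 15 rose and 3 fell with DESeq2, so no direction is given for the group. The genes named next kept their direction in all 14 alternative fits. SDH1-1, the flavoprotein subunit of succinate dehydrogenase (complex II), averaged 246 ± 10.8 CPM in snap33 and 148 ± 14.2 CPM in WT (SD, n = 3 each), a log2 fold change of 0.73 (edgeR adjusted p 2.83e-05). AT5G25450, a 14-kDa subunit annotated as of cytochrome bd ubiquinol oxidase, and AT5G04750, an inhibitor protein of the ATP synthase, had log2 fold changes of 0.98 and 0.62. AT5G47030, a subunit of the ATP synthase F1 part, averaged 182 ± 11.2 CPM in snap33 and 260 ± 13.6 CPM in WT (SD, n = 3 each), a log2 fold change of -0.52 (edgeR adjusted p 0.000149). MPPalpha, the processing peptidase bound to complex III, had -0.59 and AT3G27240, of the cytochrome c1 family, -0.49 (edgeR adjusted p 0.0235, and 0.0568 without WT replicate 3). The call on AT3G27240 held in 12 of 14 alternative fits, with edgeR adjusted p up to 0.143. Without WT replicate 3, 10 rose and 6 fell. The median log2 fold change of the 71 genes was 0.00 at 12 d and -0.12 at 5 d. With age these genes moved mostly one way: 55 of 71 were lower at 12 d than at 5 d in WT and 0 were higher, a called share of 77.5% against 40.7% of all genes, while in snap33 37 were lower and 4 higher, 57.7% against 54.8%. Medians were -0.47 in WT and -0.31 in snap33, against 0.045 and 0.00 for all genes. The snap33 step covers a longer time since planting by the labels, so the genotypes are not compared over equal steps.

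Of 38 nuclear genes for the copying, transcription, splicing and editing of the mitochondrial genome 33 were tested. At 5 d 0 rose and 2 fell in snap33, a called share of 6.06% against 13% of all genes, and at 12 d 1 rose and 8 fell, 27.3% against 41.6%. PMH1, an RNA helicase of mitochondria, fell at both ages, at 33.04 ± 1.64 CPM in snap33 and 53.9 ± 2.82 CPM in WT at 5 d (SD, n = 3 each; log2 fold change -0.71, edgeR adjusted p 0.00562), with a log2 fold change of -0.72 at 12 d (edgeR adjusted p 0.00218). POLGAMMA1, a DNA polymerase of organelles, had log2 fold changes of -0.42 at 5 d (edgeR adjusted p 0.0397) and -0.46 at 12 d (edgeR adjusted p 0.0103). Its call at 5 d held in 4 of 14 alternative fits, with adjusted p up to 0.15, and was lost with DESeq2 (0.0825), with the replicate block within age (0.107) and with each library left out. Its close relative POLGAMMA2 had -0.52 at 12 d (edgeR adjusted p 0.00192). BIR6, a pentatricopeptide repeat protein of mitochondrial splicing, averaged 3.81 ± 1.08 CPM in snap33 and 8.06 ± 0.70 CPM in WT at 12 d (SD, n = 3 each), a log2 fold change of -1.08 (edgeR adjusted p 0.000993). OTP87, an editing factor of the same protein family, was the gene that rose at 12 d, with a log2 fold change of 1.16 (edgeR adjusted p 0.0111). It was a low gene, at 3.81 ± 0.59 CPM in snap33 and 1.71 ± 0.35 CPM in WT (SD, n = 3 each). Its call held in 12 of 14 alternative fits, with edgeR adjusted p up to 0.0552. Without WT 12 d replicate 3, 1 rose and 10 fell at 12 d. The median log2 fold change of the 33 genes was -0.32 at 12 d and -0.21 at 5 d.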

How the data were processed

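Each deposited file gives raw gene counts for 1 library, which the authors made from reads aligned with STAR to TAIR10, per the submitters' processing notes, and which end in the closing lines of htseq-count, per the file contents. No source used here gives the STAR version, the gene annotation or the strand setting. Per the labels' protocols, libraries were stranded, single-read and poly(A) selected, and the text of snap33 12 d replicate 1 also names 3' sequencing. Reads without a gene (9.26% to 12.1% of a library) entered neither the library sizes nor the tests.

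The genes described, the gene lists and the tests were chosen with earlier results of these data known. The 2 codes of the respiratory list whose reference names do not match it were left out. Counts were tested with the quasi-likelihood test of edgeR 4.0.16 in R 4.3.3 with TMM scaling, its default filter (minimum count 10, total 15, 18830 genes kept) and Benjamini-Hochberg adjustment at 0.05. A single fit with 4 group means took all 12 libraries. The SE is the absolute log2 fold change over the square root of the F statistic. The script was tested on simulated data. Copies were found as exact words of 50, 75 and 100 bases in TAIR10.1, and loci were matched with BLAST 2.17.0 (e-value 1e-10). Alternatives were other scalings, DESeq2 1.42.0, no filter, only the groups compared, library sizes without organelle genes, replicate blocks and leaving out each library.

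Same-numbered snap33 and WT libraries of an age share a harvest day in the labels, so the numbers pair them. Their deviations from the group means correlated at -0.06, -0.25 and -0.09 at 5 d and at -0.08, -0.07 and 0 at 12 d. Genes named are the 12 with most counts, every gene called, the 4 largest fitted folds in each direction at each age among genes with 100 counts or more, and the 3 counts nearest the minimum on each side. From each nuclear list at most 3 called genes per direction and age are named, by smallest p.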

Additional observations from a re-analysis of the deposited data

Results flagged for a closer look

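For the following genes the snap33 effect differed between 12 d and 5 d in the edgeR test of the difference, adjusted over all genes. Values are log2 differences of 12 d minus 5 d. Of the 17 mitochondrial-genome genes tested 4 were called, near the 23.7% of all genes tested, so the count does not set them apart. Among them, ATMG00070 had -0.91 (adjusted p 0.00353) and ATMG01380 had -0.68 (adjusted p 0.00425). ATMG00516 had 0.95 (adjusted p 0.0471) and ATMG00650 had -1.79 (adjusted p 0.0409), both lost in most alternative fits. The nuclear genes were named for a call at 5 d or 12 d in the same libraries. Their differences are not independent of that choice and are a description. For the difference, 10 of the 71 chain genes tested were higher and 1 lower, a called share of 15.5% against 23.7% of all genes. Of the 33 maintenance genes tested 0 were called. Among the nuclear genes named, SDH1-1 (AT5G66760) and AT5G25450 each had 0.99 (adjusted p 0.000156 and 0.00967). CYTC-2 (AT4G10040) had 0.74 (adjusted p 0.0017), CYTC-1 (AT1G22840) 0.56 (adjusted p 0.00387) and AT5G04750 0.54 (adjusted p 0.0282). AT5G47030 had -0.47 (adjusted p 0.0122). The difference covers the time since planting as well as genotype.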

How the results depend on the processing

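Of 1163 values of single mitochondrial-genome genes under an alternative, 1045 kept their direction and side of the threshold, 38 were no longer past it, 28 were newly past it and 51 changed direction without passing it. The remaining one was ATMG00080 at 12 d against 5 d in WT, at -0.52 without WT 12 d replicate 3 and 0.67 without replicate 2. Counts of mitochondrial-genome genes called at 12 d came to 9 with no low-count filter, 9 with the replicate block within age and 4 to 9 with a library left out, the 9 without WT replicate 3. For the difference between ages 2 were called with DESeq2, 2 with the replicate block within age and 2 to 8 with a library left out. At 5 d the count was 0 to 1 with a library left out. Of the nuclear respiratory chain genes at 5 d 2 were called with the replicate block within age and 2 to 4 with a library left out. For the maintenance genes at 5 d, 1 was called with DESeq2, 1 with no low-count filter, 4 with only the groups compared, 1 with the replicate block, 1 with the replicate block within age and 1 with each library left out. The cause of these changes was not tested. The nuclear respiratory chain genes at 12 d split into 5 higher and 13 lower with upper-quartile scaling and 15 higher and 3 lower with DESeq2, against 10 and 5. The replicate block changed no other count by over 1.5 times. Upper-quartile scaling moved the median of all genes at 12 d to -0.156, against -0.037 with TMM, and in snap33 with age to -0.142, against 0. The share ratios stayed at 1.08 to 1.16 at 5 d and at 1.12 to 1.55 at 12 d, and that of WT with age was 1.03 without WT 12 d replicate 3, an alternative chosen after seeing the data. Of the 25 genes 8 had too few counts for the filter, and what kept their counts low was not tested.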
